A study of Caenorhabditis elegans with 6 samples.

Results

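Described here are 6 genes, of 18206 with an expression value, in which A-to-I editing positions were called in 2 of 3 wild-type replicates of the *C. elegans* germline. Other genes share that trait. The 6 are rpi-1 (WBGene00012332), Y79H2A.3 (WBGene00013580), tim-1 (WBGene00006571), rga-4 (WBGene00022286), rep-1 (WBGene00022051) and lyst-1 (WBGene00011361). They were chosen by the editing calls themselves, as genes with positions at a confidence of at least 0.75 in at least 1 wild-type replicate, so every editing value below describes the genes and was not tested. The difference in expression between strains was not used in the choice and was tested, but a position is listed only where a wild-type library has at least 5 reads, so a gene with few reads could enter only through wild type. Germlines were dissected from synchronized young adults of the Bristol strain N2 (wild type) and of adr-2(ok735), a deletion mutant named adr-2(-) here, raised at 20°C without any other treatment. Poly(A)-selected, stranded libraries were sequenced from 3 replicates of each strain. The deposited editing calls hold 1 list per wild-type replicate and 1 merged list for adr-2(-), so editing in adr-2(-) has no spread between replicates.

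ADARs are deaminases that bind double-stranded RNA and turn adenosine into inosine, which is read as guanosine in sequencing. ADR-2 is the ADAR of *C. elegans* that carries out the reaction. Its targets often lie where a transcript folds back on an inverted repeat, in untranslated regions and introns, and many neighbouring adenosines of such a duplex are edited. Intronic RNA is removed by splicing and is read in a poly(A) library only from RNA that has not been spliced or from what remains of it. Among the 6 genes, TIM-1 is the ortholog of Timeless, a protein of the replication fork and of chromosome cohesion. RGA-4 is a GTPase-activating protein that acts with its close relative RGA-3 in the early embryo. REP-1 is a Rab escort protein, which presents Rab GTPases for prenylation, and LYST-1 is the ortholog of the human lysosomal trafficking regulator, a BEACH-domain protein.

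The 6 libraries held between 33658937 and 96397215 reads on genes. Wild-type replicate 2 was the deepest, with 96397215 against 44991286 in replicate 1 and 48726973 in replicate 3. The adr-2 gene itself matched the labels, at 3020, 2822 and 2852 normalized counts in the wild-type libraries and at 29.2, 61.0 and 35.6 in the mutant. Germline markers were high in all libraries, with summed levels of 442667 to 478811 normalized counts in wild type against 424247 to 475270 in adr-2(-). The adr-2(-) replicate 1 library stood apart, with summed muscle markers at 10809 against 975 to 1573 in the other 5 libraries, intestine markers at 3054 against 401 to 762, and hypodermis markers at 2945 against 415 to 738. It was also lowest in oocyte markers, at 201154 against 251986 to 290382, and highest in sperm markers, at 276 against 17.4 to 179. Not all somatic markers rose: neuron markers were lowest there, at 3796 against 4067 to 4829. Gonadal sheath markers were at 1903 against 1511 to 1869. Of 3 markers each, 2 for intestine and 1 for hypodermis had a mean of at least 10 normalized counts.

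The lists named 767 positions in these genes. At 183 of them the confidence reached 0.75 in at least 1 wild-type replicate, 178 in introns and 5 in coding sequence. Of the 183, 44 were at the minimum in exactly 2 replicates, 139 in 1 and 0 in all 3. All 44, called shared positions here, lay in introns. They comprised 10 positions in rpi-1, 10 in Y79H2A.3, 8 in tim-1, 7 in rga-4, 4 in rep-1 and 5 in lyst-1. Not one of the 44 was listed for adr-2(-), at any confidence. For the 10 in rpi-1 this says little. The adr-2(-) libraries held 2 reads of that gene, and a listing needs at least 5.

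**Figure D1:**
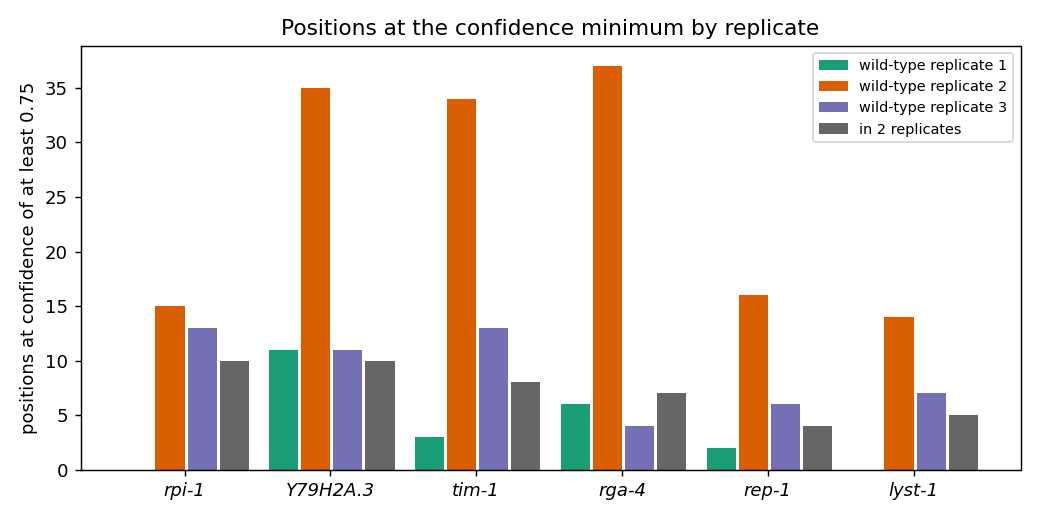
Number of positions at a confidence of at least 0.75 (vertical axis) in each of the 6 genes (horizontal axis), with 1 bar for each wild-type replicate and a grey bar for positions at the minimum in 2 replicates. Replicate 2 holds the most positions in every gene, 151 in all against 22 in replicate 1 and 54 in replicate 3.

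The deepest library carried most of the calls. Replicate 2 held 151 of the 183 positions, replicate 3 held 54 and replicate 1 held 22. Each of the 44 shared positions included replicate 2: 31 were shared with replicate 3, 13 with replicate 1, and 0 were shared by replicates 1 and 3 alone. Over the whole series, 164 intronic positions were at the minimum in exactly 2 replicates, 87 of them in replicates 2 and 3, 66 in replicates 1 and 2 and 11 in replicates 1 and 3. Those 164 positions fell in 51 genes, and the 6 genes held 26.8% of them. In rpi-1 and lyst-1 no position of replicate 1 was listed. The part of sequencing depth in these counts was not tested.

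Coverage of the introns was thin. The 178 intronic positions had a median of 11 reads per list, with a lowest value of 5, which is also the lowest coverage the lists contain, and a highest of 43. Coding positions listed for tim-1, rga-4, Y79H2A.3 and rep-1 had far more reads. In replicate 2 their medians were 502.5, 441, 225 and 199 reads, against 10, 9, 22 and 10 at the intronic positions. For rpi-1 and lyst-1 the lists held 0 coding positions, so exon and intron could not be compared in this way. Their whole genes had 20 and 107 counted reads in replicate 2, over 1508 and 8490 nt of exon. Single intronic positions there had up to 8 and 11 reads. The intron lists cannot show an unedited position, because only positions with an edited read are listed. A position missing from a list may have had no edited read or fewer than 5 reads in all, and the lists do not say which.

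**Figure D2:**
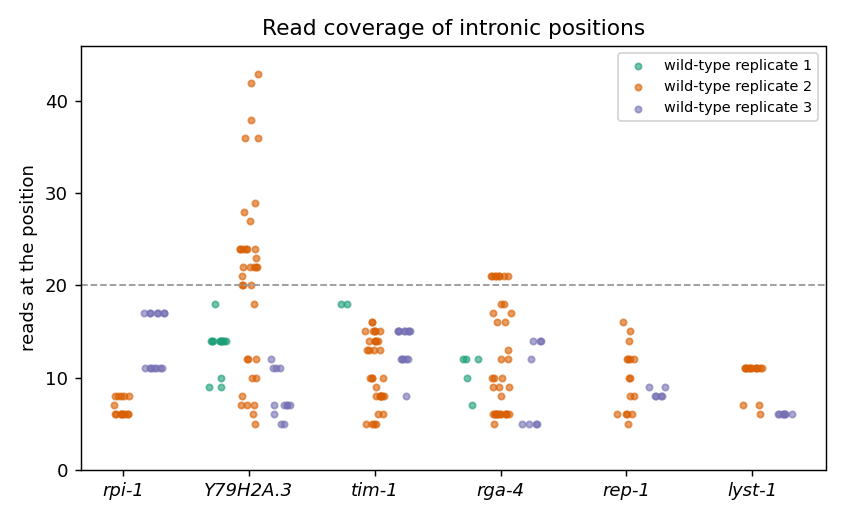
Reads at each intronic position (vertical axis) in the lists that hold it, by gene (horizontal axis) and wild-type replicate (colour), with a dashed line at 20 reads. The values run from 5 to 43, and only Y79H2A.3 and rga-4 in replicate 2 have positions with 20 reads or more.

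The confidence score sets what the minimum demands. To within 5.0e-10 it was the beta probability, given the edited and unedited reads, of an edited share above 1%. A single edited read therefore reached 0.75 wherever coverage was 29 reads or less, and 27 of the 183 positions rested on 1 edited read in each list at the minimum. The values closest to the minimum were 0.8097 at 3 positions of Y79H2A.3, each with 1 edited read of 22, and, below it, 0.7223 at a coding position of tim-1 with 7 edited reads of 528 and 0.712 at a coding position of Y79H2A.3 with 3 of 188. Positions at which every read was edited had a deposited confidence of 0, since the score has no value there. The 6 genes had 37 such listings, 11 of them at positions that reached the minimum in another replicate. Counted as edited, they brought the number of positions in at least 2 replicates from 44 to 55, and 1 position, rga-4 1375765, into all 3 replicates with 1 edited read of 7, 2 of 17 and 5 of 5.

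Mean percent editing over the 44 shared positions was 44.7%, with a median of 42.5% and a range of 11.3% to 78.0%. Each position was averaged over the lists that hold it. A replicate without an edited read is not listed and does not lower the mean, so the values lean high. The mean was 32.5% in replicate 1 over 13 positions, 45.9% in replicate 2 over 44 and 46.1% in replicate 3 over 31, an SD of 7.78 percentage points among the 3 replicates. These means cover different positions: the 13 of replicate 1 were 8 in Y79H2A.3 and 5 in rga-4. They do not compare the replicates at the same positions, and the SD includes differences between genes. The 5 of 5 reads of rga-4 1375765 in replicate 3 enter the overall and gene means. At 19 of the positions the mean was 50% or more. By gene the means were 64.8% in rep-1, 62.1% in lyst-1, 46.4% in rpi-1, 44.1% in rga-4, 43.0% in tim-1 and 27.8% in Y79H2A.3. The gap between the 2 replicates that shared a position had a median of 13.3 percentage points and reached 56.1, which is wider than the range of the gene means. Replicate 2 had the higher value at 5 of the 13 positions shared with replicate 1 and at 20 of the 31 shared with replicate 3.

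**Figure D3:**
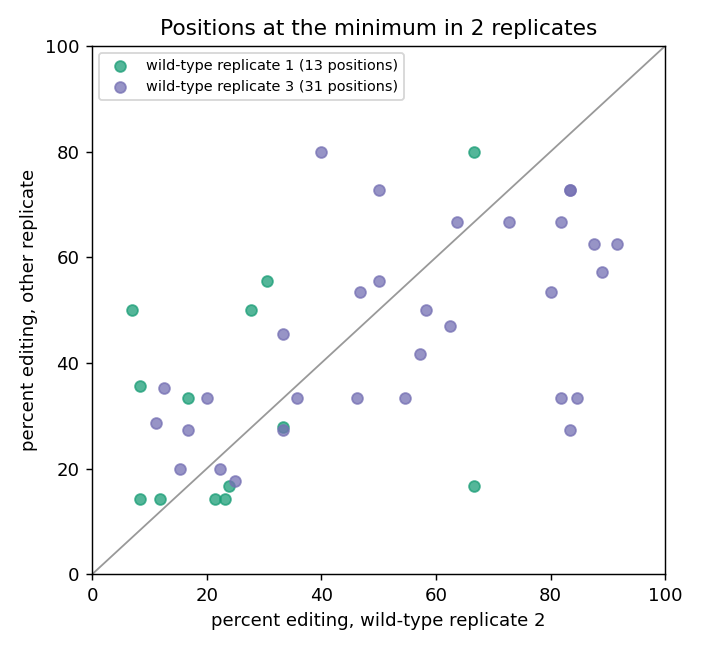
Percent editing in wild-type replicate 2 (horizontal axis) against the other replicate (vertical axis) for each of the 44 positions at the minimum in 2 replicates, with the line of equal values. Points scatter on both sides of the line, with a median gap of 13.3 percentage points.

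The positions were packed closely. Of the 178 intronic positions, 168 (94.4%) lay within 50 nt of another, 77 were directly next to another, and the median distance to the nearest was 2 nt. With a gap of 50 nt as the limit they formed 28 groups, 16 of them with at least 3 positions and 10 with 1 only. Positions of a group lie within the reach of the same reads, so they are not independent measurements. The groups sat in long introns. The 7 introns that held the 44 shared positions ranged from 561 to 2000 nt. The median annotated intron of the genome was 66 nt long. Between 2.73% and 16.1% of the 116403 annotated introns were as long or longer, a share of introns and not of bases. The genes were chosen by these calls, and groups with shared positions spanned 51 to 221 nt. Most of those groups could not fit in an intron of 66 nt. Packing and intron length were not compared with those of the other intronic positions of the series.

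**Figure D4:**
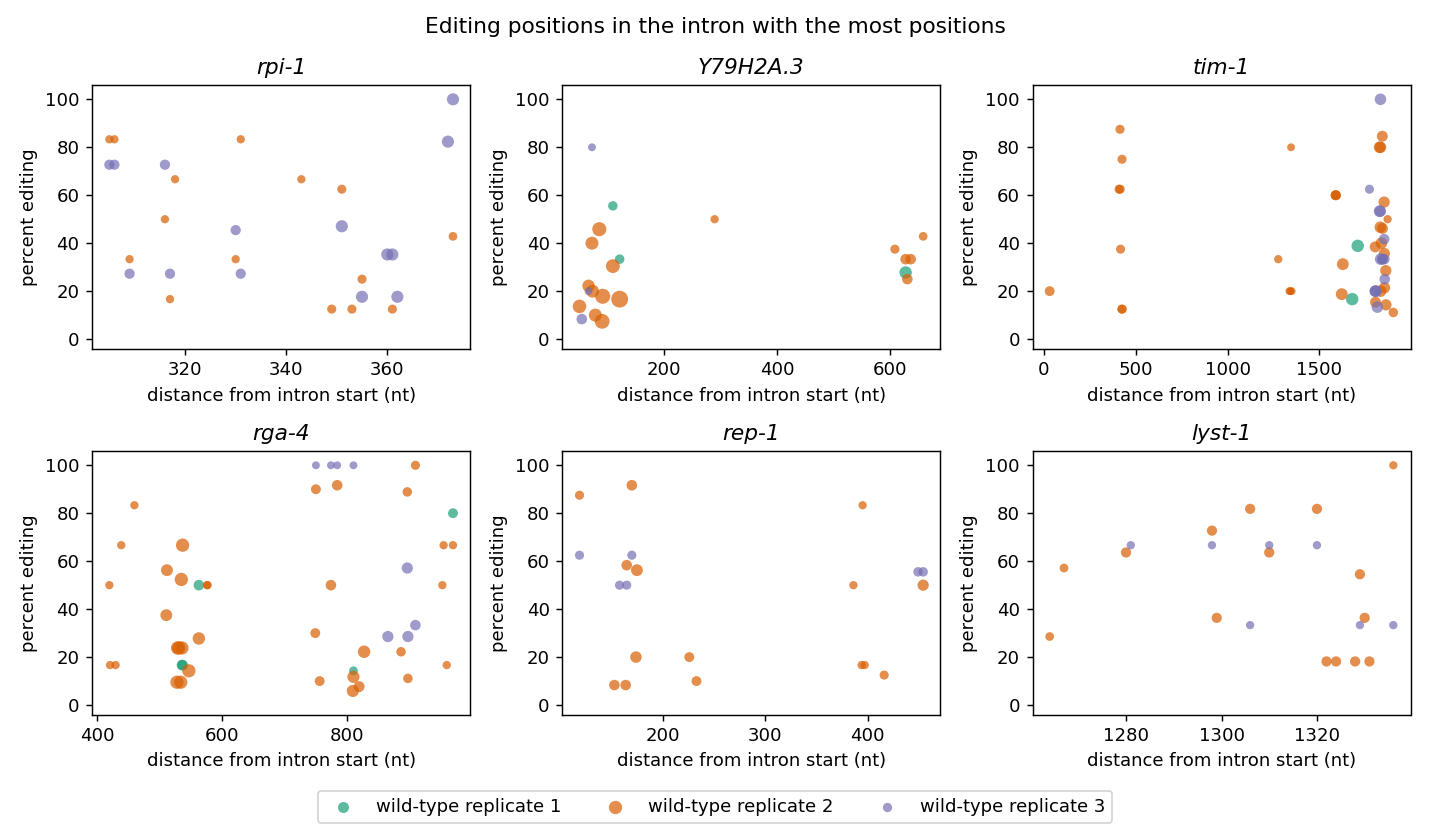
Percent editing (vertical axis) against distance in nt from the start of the intron in the direction of transcription (horizontal axis), for the intron with the most positions in each of the 6 genes. Point colour gives the wild-type replicate and point area grows with the number of reads, and the positions gather in short stretches of introns that are between 561 and 2000 nt long.

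In rpi-1, all 18 positions fell within 69 nt, from 13960511 to 13960579 on chromosome II (WS275, minus strand), in intron 4 of 4, which is 1590 nt long. Replicate 2 reached the minimum at 15 of them and replicate 3 at 13, with 10 in common. These were 66.7% of the replicate 2 positions and 76.9% of those of replicate 3. The shared positions edited most lay next to each other, at 13960578 and 13960579. Each had 5 edited reads of 6 in replicate 2 (83.3%, exact Clopper-Pearson 95% interval 35.9% to 99.6%) and 8 of 11 in replicate 3 (72.7%, 39.03% to 93.98%), a mean of 78.0%. These intervals, like the others given for single lists, cover counting error only. At the far end, position 13960511 had 3 edited reads of 7 in replicate 2 and 17 of 17 in replicate 3, and so counted in replicate 2 alone.

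Y79H2A.3 spread its 47 positions over 5 introns of chromosome III (minus strand), and held its shared positions in introns 11 and 3 of 27, which are 748 and 566 nt long. It was also the gene with the lowest percent editing. In the group of 16 positions from 12051678 to 12051758 in intron 3, replicate 2 had 21 to 43 reads and a mean of 26.2% over its 14 positions at the minimum, and replicate 1 had 14 reads and a mean of 25.5% over its 7, while replicate 3 listed no position there. Replicate 1 also listed 12051743 and 12051744 with 14 edited reads of 14 and a confidence of 0, and with these its mean was 42.1%. The highest shared position, 12048362 in intron 11, had 8 edited reads of 20 in replicate 2 (40.0%, 19.1% to 63.9%) and 4 of 5 in replicate 3 (80.0%, 28.4% to 99.5%). The next, 12048325, had 5 of 9 in replicate 1 (55.6%, 21.2% to 86.3%) and 7 of 23 in replicate 2 (30.4%, 13.2% to 52.9%). Both pairs of intervals overlap. In intron 16, which is 3037 nt long and holds the gene Y79H2A.4 on the other strand, replicate 2 listed 1 position.

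In tim-1, 41 of 42 positions lay in intron 3 of 6, the longest intron with shared positions at 2000 nt. A group of 21 positions from 12246199 to 12246329 on chromosome III (minus strand) held all 8 shared positions, with 16 at the minimum in replicate 2 and 13 in replicate 3. Mean editing at those positions was 41.8% in replicate 2 and 34.0% in replicate 3. The most edited of the shared positions, 12246274, had 12 edited reads of 15 in replicate 2 (80.0%, 51.9% to 95.7%) and 8 of 15 in replicate 3 (53.3%, 26.6% to 78.7%). Position 12246259 had 11 of 13 reads (84.6%, 54.6% to 98.1%) in replicate 2 and 4 of 12 (33.3%, 9.92% to 65.1%) in replicate 3, and position 12246269 had 12 of 15 and 15 of 15. Replicate 1 reached the minimum at 2 other positions of this intron, outside that group, with 18 reads each.

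In rga-4, 36 of 40 positions lay in intron 6 of 8, 1095 nt long, on chromosome V (minus strand). It was the only gene other than Y79H2A.3 with shared positions in both pairs of replicates. Of the shared positions the most edited, 1375606, had 8 edited reads of 10 in replicate 1 (80.0%, 44.4% to 97.5%) and 4 of 6 in replicate 2 (66.7%, 22.3% to 95.7%). Position 1375679 had 8 of 9 in replicate 2 (88.9%, 51.8% to 99.7%) and 8 of 14 in replicate 3 (57.1%, 28.9% to 82.3%), while its neighbour 1375678 had 1 of 9 and 4 of 14. Adjacent positions with the same number of reads thus differed widely. In replicate 3, positions 1375791, 1375801 and 1375825 were each edited in 5 of 5 reads and so carried a confidence of 0.

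rep-1 had 17 of its 20 positions in intron 7 of 10, 561 nt long, on chromosome III (plus strand), and the highest mean editing of the 6 genes. Position 1574556 had 11 edited reads of 12 in replicate 2 (91.7%, 61.5% to 99.8%) and 5 of 8 in replicate 3 (62.5%, 24.5% to 91.5%). Position 1574505 had 7 of 8 (87.5%, 47.3% to 99.7%) and 5 of 8 (62.5%, 24.5% to 91.5%). The lists do not give all positions of this intron to rep-1: 5 listings, 3 of replicate 1 and 2 of replicate 3, were assigned to cisd-3.2, which the annotation used here places at 1540493 to 1543448, upstream of rep-1. In replicate 1 they were 1574500 (5 of 8 reads), 1574823 (5 of 6) and 1574474 (5 of 5). Taken by location, rep-1 had 22 positions at the minimum and 5 in 2 replicates, and the 6 genes had 45.

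In lyst-1, the 16 positions fell within 73 nt, from 12128754 to 12128826 on chromosome X (minus strand), in intron 35 of 35, which is 1600 nt long. Replicate 2 had 6 to 11 reads there and a mean of 46.4% over its 14 positions at the minimum, and replicate 3 had 6 reads and a mean of 52.4% over its 7. Position 12128770 had 9 edited reads of 11 (81.8%, 48.2% to 97.7%) and 4 of 6 (66.7%, 22.3% to 95.7%), and position 12128792 had 8 of 11 (72.7%, 39.03% to 93.98%) and 4 of 6 (66.7%, 22.3% to 95.7%). Both thus stood above 50% in each replicate. lyst-1 and rpi-1 had no listed position of any kind for adr-2(-). Only 2 reads were counted for rpi-1 in the adr-2(-) libraries together, and a listing needs at least 5. The absence of rpi-1 therefore cannot be read as a loss of editing. How many adr-2(-) reads covered the lyst-1 intron is not given in the lists.

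The merged adr-2(-) list named 5 intronic positions in the 6 genes, 4 in Y79H2A.3 and 1 in rga-4, and none of them was listed in wild type. They had 1 edited read of 5, 8, 7 and 8 and 2 of 20, so that the background, where it was listed, ran from 10% to 20.0% on 1 or 2 reads. None lay in a group. In coding sequence, 2 positions of rga-4, 1378102 and 1378105, were listed in all 3 wild-type replicates at 0.988% to 2.44% and in adr-2(-) at 0.955% (4 of 419 reads) and 1.02% (4 of 394). They were the only members of the 183 that adr-2(-) shared.

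The rest of the series gives the scale of these numbers. Over all genes, 1098 positions reached the minimum in all 3 replicates, 1012 of them unlisted for adr-2(-) and located in 71 genes. Only 37 of the 1098 were intronic, with a median of 17 reads per list and a median mean editing of 52.1%. Between each gene and the nearest of the 71 lay 18.8 kb for rep-1 (eelo-1), 21.6 kb for tim-1 (gmn-1), 86.6 kb for Y79H2A.3 (Y56A3A.28), 105 kb for rpi-1 (lem-2), 424 kb for rga-4 (sqv-6) and 11474 kb for lyst-1 (ifc-2). A total of 12 genes had at least 4 positions in exactly 2 replicates and 0 in all 3. Beside the 6 these were F36D4.4, nxt-1 and txl-1, with introns as their host, and pcmd-1, sos-1 and Y92H12BL.5, with 3′ UTRs.

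Expression was compared next, to ask whether the mRNA of these genes differed when ADR-2 was absent. Of the 6, 5 had a mean of at least 10 normalized counts and entered the limma test over 9779 genes. None of the 5 was called (adjusted p no higher than 0.05 with an absolute log2 fold change from 0.5 upwards), where 0.297% of all genes tested were called. At an unadjusted p under 0.05, limma gave 1 of the 5, rga-4, against 12.5% of all genes. The unadjusted p of rga-4 was also under 0.05 in edgeR (0.0299) and in DESeq2 (0.0114). By the adjusted p and fold change limits, neither edgeR nor DESeq2 called any of the 5. In 2 of the 5, tim-1 and rga-4, the groups did not overlap, against 18.8% of all genes, and in both adr-2(-) was lower, against 9.26%. The median log2 fold change of the 5 was -0.05, beside 0.0046 over all genes. Levels per kb of exon put tim-1 highest, at 3137 normalized counts per kb in wild type, then rga-4 at 2594, Y79H2A.3 at 1542, rep-1 at 242, rpi-1 at 9.31 and lyst-1 at 5.31. rpi-1 (SD 7.03, n = 3) and lyst-1 (SD 0.677, n = 3) do not differ beyond their spread in that order.

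**Figure D5:**
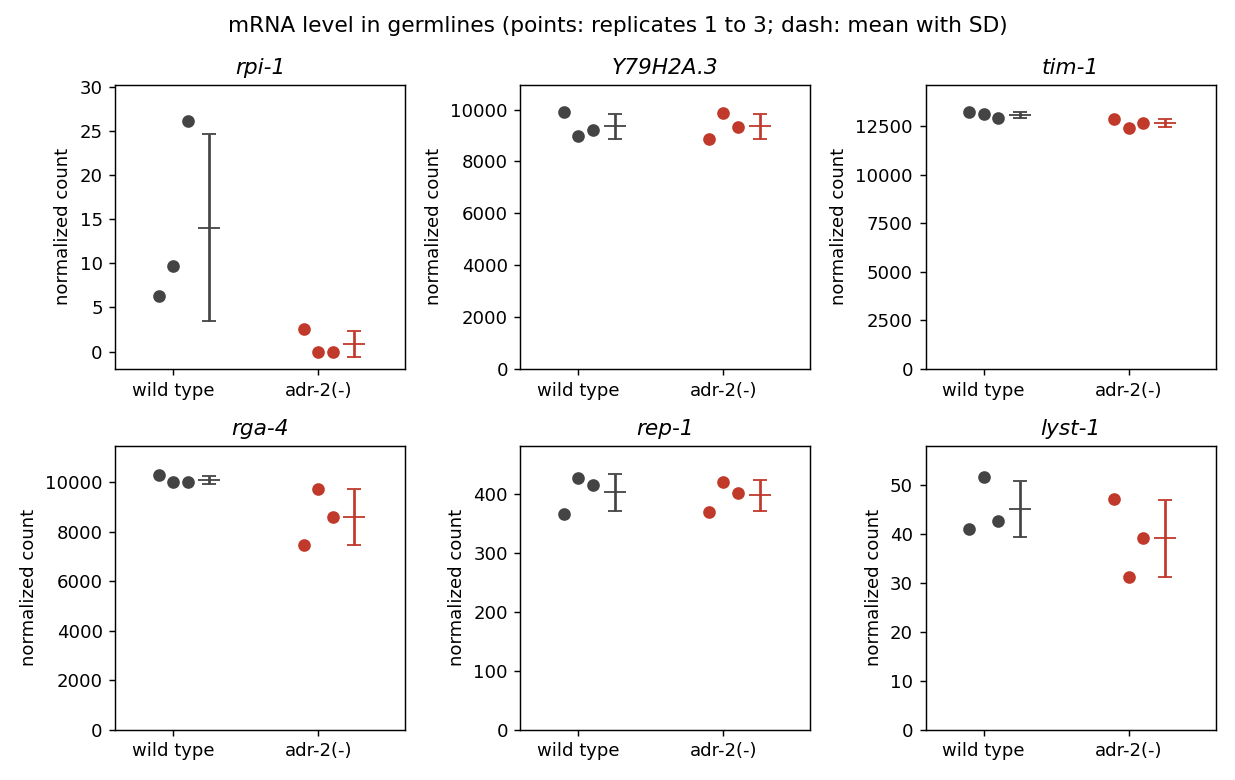
Normalized counts (vertical axis, from 0 or just below) of the 6 genes in the 3 wild-type and 3 adr-2(-) libraries, with replicates 1 to 3 from left to right and the mean with SD beside them. The groups do not overlap in rpi-1, tim-1 and rga-4 and overlap in Y79H2A.3, rep-1 and lyst-1.

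rpi-1 had 2 reads in all 3 adr-2(-) libraries together against 53 in wild type. It stood at 6.31, 9.66 and 26.1 normalized counts in replicates 1, 2 and 3 of wild type, and at 2.54, 0 and 0 in those of adr-2(-), which correspond to 6, 20 and 27 reads against 2, 0 and 0. The groups did not overlap, and wild-type replicate 3 stood well above the other 2. With the mean at 7.44 normalized counts rpi-1 fell under the minimum of 10 and was not in the main test. No p is given, because a gene of so few reads could be chosen only through its wild-type reads, which favours a higher level there. Corrected for depth, the summed reads of adr-2(-) were 0.0639 times those of wild type. The exact conditional 95% interval of 0.00754 to 0.242 covers counting error only. It allows neither for the choice through wild-type reads nor for the spread between replicates, so it cannot serve as a test. Without wild-type replicate 3 the ratio of means was 0.106. Of all 18206 genes, 12.9% had groups that did not overlap, 5.59% with adr-2(-) lower. The edited stretch of the last intron alone had up to 8 reads in replicate 2 and 17 in replicate 3, beside 20 and 27 reads counted for the whole gene. How reads were assigned to genes is not given in the sources used here, and whether the counted reads include intronic ones was not tested. In dissected tissue, fewer cells of a type and less RNA per cell cannot be told apart.

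rga-4 had a lower mean in adr-2(-), and the difference was not called. It had 10293, 10016 and 9994 normalized counts in wild type (10101 ± 166, SD, n = 3) and 7463, 9737 and 8585 in adr-2(-) (8595 ± 1137, SD, n = 3). Every adr-2(-) library was below every wild-type one, and the spread was wider in adr-2(-). The log2 fold change was -0.24 (SE 0.09), with an unadjusted p of 0.0248 and an adjusted p of 0.329 in limma. Without adr-2(-) replicate 1, the library with the high muscle, intestine and hypodermis and low oocyte markers, it was -0.14 (limma adjusted p 0.535), and without adr-2(-) replicate 2 it was -0.34 (limma adjusted p 0.0641). The part of that library's other cell types in the rga-4 value was not tested. RGA-3, the close relative of RGA-4, was at 14272, 13178 and 13726 normalized counts in wild type and at 11956, 13861 and 12743 in adr-2(-), a log2 fold change of -0.10 (SE 0.07, limma adjusted p 0.599), and how reads that match both genes were counted is not stated.

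tim-1 and Y79H2A.3 differed little in mean between the strains. tim-1 had 13254, 13137 and 12941 normalized counts in wild type against 12861, 12435 and 12689 in adr-2(-). The lowest wild-type value was above the highest of adr-2(-), but the log2 fold change was only -0.05 (SE 0.05, limma adjusted p 0.745). Y79H2A.3 had 9900, 8969 and 9191 normalized counts in wild type against 8876, 9853 and 9341 in adr-2(-), with overlapping groups, a log2 fold change of 0.00049 (SE 0.07) and a limma adjusted p of 0.998. The direction of so small a value changed with the scaling. In tim-1 the means were further apart than the SD of either group (13111 ± 158 against 12662 ± 214, SD, n = 3 each). Neither gene was called.

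rep-1 and lyst-1 had overlapping groups. rep-1 was at 366, 426 and 414 normalized counts in wild type and at 370, 420 and 401 in adr-2(-), a log2 fold change of -0.02 (SE 0.13, limma adjusted p 0.971). lyst-1 was at 41.04, 51.7 and 42.6 normalized counts in wild type and at 47.0, 31.2 and 39.1 in adr-2(-), a log2 fold change of -0.21 (SE 0.34, limma adjusted p 0.831). With SEs of this size a moderate difference in lyst-1 was not detectable at this depth. lyst-1 reads numbered 23 to 107 per library.

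Genes that work with these proteins gave no call either, where 0.297% of all genes were called and 12.5% had an unadjusted p under 0.05. Of 15 genes of the replication fork and of cohesin, the partners of TIM-1, 0 were called by limma and 0 had an unadjusted p under 0.05 (median log2 fold change -0.01). The smallest p values there belonged to chl-1, a helicase of sister chromatid cohesion, at -0.14 (limma adjusted p 0.4003), and tipn-1, the Tipin ortholog that pairs with TIM-1, at -0.08 (limma adjusted p 0.687).

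Of 20 Rab GTPases and prenylation factors that were tested, the clients and partners of REP-1, 0 were called by limma and 5 had an unadjusted p under 0.05, against 0.297% and 12.5% of all genes (median log2 fold change 0.03). rab-18 had 2810, 2728 and 2769 normalized counts in wild type against 3335, 3740 and 3676 in adr-2(-), a log2 difference of 0.37 (SE 0.07) with a limma adjusted p of 0.0834, and rab-10 stood at 0.19 (limma adjusted p 0.273). The groups did not overlap in 7 of the 20 Rab and prenylation genes, against 18.8% of all genes. They did not overlap in 3 of the 16 BEACH and lysosome genes and 2 of the 15 fork genes. Of 16 BEACH-domain and lysosome genes, related to LYST-1, 0 were called and 2 had an unadjusted p under 0.05 (median 0.01), namely lmp-1, a lysosomal membrane protein, at -0.41 (limma adjusted p 0.273) and cup-5, the mucolipin channel of lysosomes, at 0.20 (limma adjusted p 0.289). Among the 71 genes edited in all replicates, 68 were tested. Of these, 0 were called by limma and 12 had an unadjusted p under 0.05, against the same 0.297% and 12.5% (median 0.02). In 21 of the 68 the groups did not overlap, against the same 18.8% of all genes. Each of these lists had a median within 0.06 of the 0.0046 over all genes.

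The genes whose levels followed each of the 6 most closely over the 6 libraries are given as a description, with Pearson correlations of log2 normalized counts and without a test. For rpi-1 these were pqn-42 (0.991) and nhr-181 (0.985), and for rga-4 rpb-4 (0.998) and rpl-37 (0.997). For tim-1 they were Y116A8C.27 (0.992) and F58H7.5 (0.991), and for Y79H2A.3 cogc-1 (0.988) and mel-11 (0.985). The closest to rep-1 were WBGene00020338 (0.984) and B0416.5 (0.977), and to lyst-1 wrt-5 (0.975) and Y39H10B.2 (0.971). With 6 libraries many genes reach such values: 157 genes had a correlation of at least 0.95 with rga-4 and 13 to 20 with each of the others. All of them share the same libraries and scaling.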

How the data were processed

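RNA-seq of germlines of 3 wild-type and 3 adr-2(-) replicates was used, grouped by the sample labels. The authors mapped reads with STAR 2.7.10b to genome WS275 and called editing with SAILOR (version not given in the sources used here), per replicate for wild type and merged for adr-2(-). The deposited coverage column gives read depth and the share of edited reads, without normalization, and the deposited confidence is a score from 0 to 1. Expression values are gene counts that the authors divided by 1 factor per library, a deposited signal called normalized count here. The program that counted reads per gene is not given in the sources used here. The deposited table also holds the authors' own fold changes, p-values and related columns, which were not used. No per-sample column was left unmapped (0).

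A position was the same in 2 lists if chromosome, coordinate and strand were equal, and percent editing is edited reads over coverage. Introns, gene positions and exon lengths were taken from Ensembl release 115 (WBcel235), and all 183 positions lay inside the gene named. Dividing each value by what 1 read is worth in its library gave whole reads for 100% of values, within 0.0001 read, with 1 read worth 0.483 to 1.36 normalized counts. Since the values are normalized, limma 3.58.1 in R 4.3.3 was the main test, with a mean-variance trend, 1 as the pseudocount and 10 as the lowest mean, with Benjamini-Hochberg adjustment, and fold changes are on the log2(value + 1) scale. On the recovered reads, edgeR 4.0.16 called 19 genes and DESeq2 1.42.0 called 127, against 29 by limma. The scripts were tested on simulated data with known fold changes. Replicates of a strain differed by more than sampling noise, with a chi-square of at least 28.8 per degree of freedom. The study describes the replicates as biological, and p-values measure the spread between these samples.

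The 6 genes and the gene lists were chosen with earlier results of these data known. The rule for naming took the 6 genes, adr-2, for each of the 6 the 2 genes most correlated with it, from each list the called genes and the 2 with the smallest p, and for each gene the 2 shared positions with the highest mean editing, at any coverage where fewer than 2 had 20 reads in each list. rga-3 and the further positions were named after their values were seen. Alternatives changed the normalization, the test, the filter on low values, the pseudocount, the confidence, the coverage and the number of replicates, added a replicate block, or left out 1 library at a time. The sequences around the positions are not shown here, and 1 of the gene lists is not reported here. Python 3.11.15, pandas 2.3.3, NumPy 2.4.6, SciPy 1.17.1 and Matplotlib 3.10.9 were used.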

Additional observations from a re-analysis of the deposited data

How the results depend on the processing

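The 44 shared positions became 46 at a confidence minimum of 0.5, 44 at 0.9, 44 with positions listed for adr-2(-) removed, and, in alternatives chosen after seeing the data, 39 with at least 2 edited reads, 55 with positions edited in all reads counted, and 45 by location. They became 183 in at least 1 replicate, 0 in all 3 and 0 with at least 20 reads in each list, and, with each wild-type replicate left out, between 0 (without replicate 2) and 31, with 13 without replicate 3. Mean percent editing moved by less than the SD of 7.78 percentage points in each alternative run. With a replicate left out it was 43.1% to 46.8% over the same 44 positions, which were not chosen again. Chosen again without replicate 2, 0 positions would have been left. The SD also includes differences between genes, so a shift smaller than the SD says little about stability. The 20-read minimum left 0 positions to average. No member was called in any setting that tested it. For rpi-1 that was only limma with no filter on low values. All genes called numbered 19 in edgeR, 127 in DESeq2 and 8 to 64 in limma with a library left out, against 29. The fold changes of rga-4, tim-1 and lyst-1 kept their sign. That of Y79H2A.3 was -0.017 with TMM factors and ran from -0.037 to 0.042 with a library left out, and that of rep-1 ran from -0.084 to 0.033. The cause was not tested. The correlations of same-numbered deviations were 0.03, -0.22 and 0.38, and those of differently numbered ones ran from -0.38 to 0.42. With 3 libraries per strain these values cannot decide whether replicate numbers pair the samples, which were treated as unpaired. A replicate block called 25 genes and 0 of the 5 members tested. At 5 to 43 reads per intronic position, counting error of percent editing is wide.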
